A study of Homo sapiens with 27 samples.

Results

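DLD-1, a human colorectal cancer cell line, was compared between cells made resistant to oxaliplatin (OX res) and untreated cells of the same line (WT). The comparison rests on the libraries titled as DLD-1 OX and DLD-1 WT, 3 of each, so 6 of the 27 libraries of the series. OX res cells had been exposed to OX at non-lethal doses from 5 to 35 µM over about 6 months, and the WT libraries carry the label of a negative control. The other 21 libraries were DLD-1 cells exposed to 5 to 70 µM fluorouracil (5-FU res) and the same 3 groups of HCT116 and SW480, and they are used here only for values set beside those of OX res and for tests of the difference. All cells grew in low-glucose DMEM with serum in 6-well plates, and stranded mRNA libraries were sequenced on a DNBSEQ instrument. The sources used here do not say whether OX res DLD-1 cells were a clone or a pool, whether OX was present at harvest, or if the libraries within a group were grown separately, and they give no measurement of OX resistance for DLD-1. The p-values therefore rest on the variation among these libraries alone, and that variation may be technical.

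Oxaliplatin is a platinum drug that forms adducts with DNA, which stall replication and are handled by nucleotide excision repair, the Fanconi pathway, homologous recombination and translesion polymerases. Platinum enters and leaves cells partly through copper and organic cation transporters, and metallothioneins and glutathione bind it. Colon epithelium is a simple epithelium built on keratins 8, 18, 19 and 20, whose absorptive and goblet cells make brush border enzymes, trefoil factors and mucins under factors such as CDX2 and HNF4A. Stratified squamous epithelia use other keratins and assemble a cornified envelope from involucrin and small proline-rich (SPRR) proteins.

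Values are TPM, obtained by dividing each FPKM by the sum over its library, and fold changes are on the log2(TPM + 1) scale, which understates changes of low genes. The deposited FPKM summed to 499557 to 515400 in the WT libraries and 455221 to 471481 in the OX res libraries, and no read counts were at hand, so the depth is unknown. Libraries of a group correlated at 0.992 to 0.993 over genes. Of 13467 genes tested with limma over the 9 DLD-1 libraries, 486 (3.61%) passed the call, which required a log2 fold change beyond 1 with an adjusted p under 0.05, and 363 of these (2.7% of the genes tested) were higher and 123 (0.913%) lower in OX res. At the adjusted p alone, 5208 genes (38.7%) were higher and 1504 (11.2%) lower, and all 3 OX res values lay above or below all 3 WT values for 7951 (59%). The median change over all genes was 0.13, and cytosolic ribosomal protein genes took 19.8% to 20.4% of the TPM in WT and 14.9% to 15.7% in OX res. With median-of-ratios scaling the median was 0.00, and the calls beyond 1 numbered 278 higher (2.06%) and 155 lower (1.15%), those at the adjusted p alone 3238 (24%) and 3001 (22.3%). Gene lists are given below by the members that passed the adjusted p alone in each direction, to be read against these shares and the median of 0.13. TPM values are given library by library, a value in parentheses after a gene or its TPM is its log2 fold change, and a gene that rose or fell by a value passed the adjusted p in limma with that log2 fold change. Among the genes given library by library, the groups did not overlap wherever the test was passed. Keratins, metallothioneins, HLA genes and ribosomal protein genes have close copies, so their reads may be split with error.

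The epithelial identity of the line was visible in both groups. EPCAM, an adhesion protein of epithelial cells, was 789.7, 789 and 776 TPM in WT and 898, 885 and 892 in OX res. Of 16 markers of colorectal epithelial lines, 14 were tested, with 6 up and 6 down (5 and 8 with median-of-ratios scaling), and CDX1 and VIL1 lay below the filter of a TPM of 1 in at least 3 libraries. Markers of other cell types stayed low. Summed over the list, 10 fibroblast markers reached a TPM of 1.10 to 1.79 in WT and 0.489 to 1.10 in OX res, 10 leukocyte markers 6.38 to 7.78 and 8.29 to 9.30, 10 endothelial markers 5.74 to 8.56 and 7.65 to 10.1, and 8 erythroid markers 0.319 to 0.994 and 0.338 to 0.571. The lymphocyte genes CD3D, CD3E and MS4A1 and the endothelial receptor KDR were listed at 0 in all 6 libraries. In bulk RNA, fewer cells of a type and less RNA per cell cannot be told apart.

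Among the largest gains in OX res were squamous and other epithelial genes. SPRR3, a cornified envelope protein, was 0, 0.232 and 0 TPM in the WT libraries and 47.2, 44.5 and 38.4 in the OX res libraries (log2 fold change 5.37, SE 0.19, adjusted p = 1.4e-09, limma). IVL, which encodes involucrin, was 0.874, 1.39 and 0.626 in WT and 25.2, 25.5 and 23 in OX res (log2 fold change 3.72, SE 0.14, adjusted p = 2.4e-09). Both genes were near or below 1 TPM in WT and above 20 TPM in every OX res library, and they lie close together in the epidermal differentiation complex. SPRR1A was listed at 0 in all WT libraries and at 11.3, 10.9 and 9.5 in OX res, SPRR1B at 0 and at 3.37, 1.65 and 3.95, and the hair keratin KRT31 at 0 and at 4.91, 5.03 and 3.88. The SPRR genes are similar in sequence, so reads may be split between them.

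The sequences before the start sites of SPRR3 and IVL, which gained RNA, and of KRT4 and DPP4, the keratin and the brush border gene described next, are shown as the promoters of genes from both ends of the change. Each is the 250 bases before the RefSeq start on GRCh38.p14, 5′ to 3′ on the strand of the gene, at chr1:153001499-153001748 (+), chr1:152908296-152908545 (+), chr12:52814117-52814366 (−) and chr2:162074216-162074465 (−). Capitals mark exact matches to the letters of an AP-1 motif (TGANTCA, read on both strands) and a TATA box (TATAAA). SPRR3 and IVL held both, and KRT4 and DPP4 held neither in these exact letters. KRT4 has tataag close to its start, a near match to the TATA letters that was not counted.
SPRR3: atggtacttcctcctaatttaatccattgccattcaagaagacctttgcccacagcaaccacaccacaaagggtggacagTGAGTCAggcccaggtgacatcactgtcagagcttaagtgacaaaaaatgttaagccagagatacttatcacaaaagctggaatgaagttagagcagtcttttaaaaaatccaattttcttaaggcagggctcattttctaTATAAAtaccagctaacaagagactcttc
IVL: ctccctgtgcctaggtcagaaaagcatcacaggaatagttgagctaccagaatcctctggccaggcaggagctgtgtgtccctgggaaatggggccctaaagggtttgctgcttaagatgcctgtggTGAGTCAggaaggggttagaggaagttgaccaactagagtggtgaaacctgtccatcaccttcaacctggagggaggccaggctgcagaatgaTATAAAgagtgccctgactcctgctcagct
KRT4: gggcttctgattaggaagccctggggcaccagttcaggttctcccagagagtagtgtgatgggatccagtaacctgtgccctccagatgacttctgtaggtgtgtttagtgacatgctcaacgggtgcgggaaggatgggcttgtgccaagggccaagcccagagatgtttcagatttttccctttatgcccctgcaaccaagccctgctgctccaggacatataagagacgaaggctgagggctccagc
DPP4: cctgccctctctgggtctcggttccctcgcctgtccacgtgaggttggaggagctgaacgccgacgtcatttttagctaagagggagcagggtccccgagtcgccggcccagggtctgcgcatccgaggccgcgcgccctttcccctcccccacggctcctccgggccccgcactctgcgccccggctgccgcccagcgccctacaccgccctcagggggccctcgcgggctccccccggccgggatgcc
The AP-1 motif began 170 bases before the start in SPRR3 and 123 in IVL, and the TATA box 29 and 30 bases before it. The AP-1 letters occurred in 6.6% of 27305 promoters of this length, in 4% of 10387 promoters of genes tested, in 12.7% of 259 promoters of genes called higher and in 4.6% of 87 promoters of genes called lower. The TATA letters occurred in 11.1%, 5.48%, 17.8% and 16.1% of the same sets. A match describes the letters only.

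Keratins moved as a family. Of 20 keratins listed, 14 were tested, of which 11 rose and 1 fell, with a median of 1.2 (1.06 with median-of-ratios scaling). KRT4, a keratin of wet stratified epithelia, was 4.78, 4.66 and 4.28 TPM in WT and 41.6, 47.4 and 42.6 in OX res (log2 fold change 3.01, SE 0.09, adjusted p = 4.4e-10, limma). KRT16 and KRT6A, keratins of activated squamous cells, rose by 2.57 and 1.92, KRT15, a basal cell keratin, by 2.39, and KRT80 by 1.85. The simple-epithelium keratins, already among the most abundant RNAs, rose too. KRT8 went from 4564, 4688 and 4798 TPM to 10610.5, 9983 and 9849 (log2 fold change 1.11, SE 0.05, adjusted p = 1.1e-08), its partner KRT18 rose by 1.24 and KRT19 by 1.17. KRT20, the keratin of differentiated colon cells, was the member that fell, by 1.44, from 10.6, 9.91 and 8.84 to 2.93, 2.42 and 3.68 TPM.

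A list of 48 squamous differentiation genes was written after these values had been seen and is a description only. Of its members 24 were tested, of which 23 passed upwards and 0 downwards, with a median of 1.68, but SPRR1A, SPRR1B, SPRR3, IVL and KLK7 reached the filter only through the OX res libraries. They included the secreted serine proteases KLK7 (2.34), KLK12 (2.18), KLK11 (1.66) and KLK6 (1.58), the protease inhibitor SERPINB5 (2.37), the calcium-binding S100A2 (2.32), the annexin ANXA1 (2.45) and the deiminase PADI1 (2.47). Other genes that define squamous cells were near or at 0. TP63, the master factor of stratified epithelium, the desmosomal cadherin DSG3, the envelope protein LOR and SERPINB3 did not reach the filter, and the basal keratin KRT5 was 4.56, 1.44 and 0.865 TPM in WT and 2.17, 2.43 and 3.97 in OX res (log2 fold change 0.36, adjusted p = 0.395, limma), and passed only when WT replicate 1, its highest value, was left out (0.83). GRHL3, a factor of barrier differentiation, rose from 64.5, 66.0 and 63.3 TPM to 99.6, 107 and 96.0 (log2 fold change 0.63, SE 0.06, adjusted p = 3.2e-06).

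**Figure D1:**
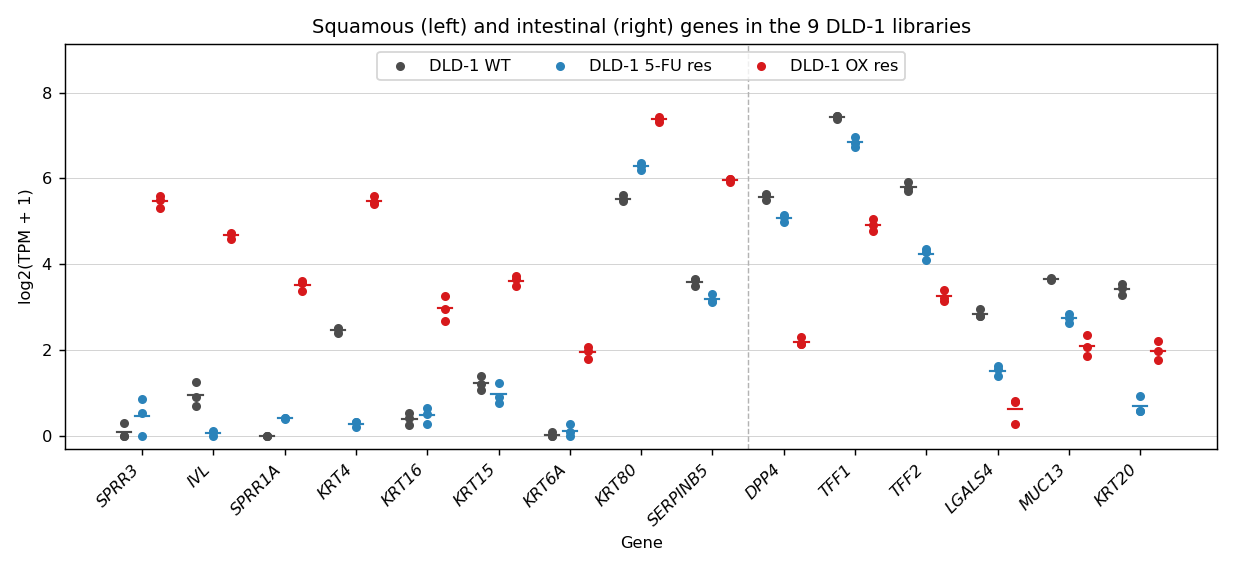
Log2(TPM + 1) of 9 squamous genes (left of the dashed line) and 6 intestinal genes (right) in each DLD-1 library, with 3 points per group and a line at the group mean. The OX res points lie above all WT points for the squamous genes and below them for the intestinal genes, while the 5-FU res points lie near or below WT for most squamous genes.

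Among the other largest gains were genes of placenta, stomach and bladder epithelium. ALPP, placental alkaline phosphatase, was 4.25, 4.33 and 4.51 TPM in WT and 82.8, 70.7 and 70.0 in OX res (log2 fold change 3.81, SE 0.08, adjusted p = 8.7e-11, limma), although its near-identical copies make the assignment of reads uncertain. MUC6, a gel-forming mucin of gastric glands, was 3.08, 4.44 and 3.03 in WT and 52.4, 60.9 and 55.7 in OX res (3.68), and UPK2, a uroplakin of bladder epithelium, was 2.79, 0.889 and 2.61 in WT and 21.8, 19.1 and 24.8 in OX res (2.94). For all 3 genes the groups did not overlap. C6orf15 rose by 5.34, the secreted IGFL1 by 4.81, the hair keratin-associated KRTAP3-1 by 4.60, FAM25A by 3.84, the carboxypeptidase CPA4 by 3.03 and C1QTNF9B by 2.93. SNORA64 also ranked among the largest gains and MIR1273E, SNORA24 and SNORA81 among the largest losses, but these are short RNAs that FPKM from poly(A) libraries measure poorly.

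Intestinal genes fell more often than they rose. Of 49 intestinal differentiation genes only 18 were expressed highly enough to be tested, and 10 were lower and 6 higher, with a median of −0.63 (−0.76 with median-of-ratios scaling). The list was also lower in 5-FU res against the same WT libraries, with 12 lower and 3 higher and a median of −0.56. Tested directly, OX res was above 5-FU res in 9 of the 18 and below it in 7, with a median of 0.05. Of all genes, 44.6% were above and 18.3% below in that test. DPP4, a peptidase of the brush border, was 48.7, 47.9 and 44 TPM in WT and 3.40, 3.98 and 3.45 in OX res (log2 fold change −3.38, SE 0.07, adjusted p = 8.7e-11, limma). The trefoil factor TFF1 was 167, 173 and 174 in WT and 32.1, 29.0 and 26.4 in OX res (log2 fold change −2.51, SE 0.07, adjusted p = 3.8e-10), and the groups overlapped for neither gene. TFF2 fell by 2.54 and TFF3 by 1.58. LGALS4, a galectin of gut epithelium, fell by 2.22 and the membrane mucin MUC13 by 1.56. The transcription factors of the gut fell less. CDX2 was 198, 193 and 189 in WT and 134, 114 and 114 in OX res (log2 fold change −0.68), and GATA6 fell by 0.89, KLF4 by 0.67 and HNF4A by 0.59. The 6 members that rose included the gastric mucin MUC5AC, from 9.66, 12.5 and 9.22 to 37.9, 41.5 and 38.5 TPM (log2 fold change 1.82). Others were PHGR1 by 1.0, SPINK4 by 0.75 and the carbonic anhydrase CA2 by 0.60. SPINK4 did not pass with median-of-ratios scaling (adjusted p = 0.0584, limma), nor without WT replicate 1 (0.68) or OX res replicate 2 (0.44).

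Enzymes and receptors of other kinds were also among the largest losses. P2RY1, a receptor for ADP, was 38.8, 44.2 and 40.6 TPM in WT and 5.6, 6.4 and 4.99 in OX res (log2 fold change −2.67), and HSD17B2, which inactivates sex steroids, was 6.78, 7.01 and 8.51 in WT and 0.270, 0.391 and 0.514 in OX res (−2.60). Neither overlapped between groups. UGT1A1, the bilirubin glucuronosyltransferase, fell by 3.32, and since the UGT1A genes share their last exons its level may hold reads of the others. ITGA9, an integrin subunit, fell by 2.63 and CD177 by 2.39. ARSE was listed at 4.01, 3.0 and 3.68 in WT and at 0 in all 3 OX res libraries, and FCAMR at 1.43, 1.31 and 1.18 and at 0.

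Ligands of the TGF-β family moved unevenly. Of 32 ligands, receptors and SMADs, 28 were tested, and 14 were higher and 3 lower (12 and 7 with median-of-ratios scaling), with a median of 0.15, close to that of all genes. INHBB, a subunit of activin B, was 3.07, 3.04 and 3.20 TPM in WT and 29.7, 33.5 and 33.4 in OX res (log2 fold change 3.01, SE 0.08, adjusted p = 1.4e-10, limma). TGFB2 was 4.30, 4.22 and 3.86 in WT and 28.9, 32.3 and 31.2 in OX res (log2 fold change 2.63, SE 0.08, adjusted p = 2.9e-10). Every OX res value of both ligands was far above WT. TGFB3 rose by 1.31, the co-receptor TGFBR3 by 1.0 and BMP4 by 1.03, whereas BMP2 fell by 0.80 and the receptor BMPR1B by 0.67. TGFB1 was 41.8, 47.3 and 40.0 TPM in WT and 45.8, 39.6 and 39.1 in OX res (adjusted p = 0.606, limma). Of 24 TGF-β target genes tested, 9 were higher and 7 lower, with a median of 0.04. SMAD7, the inhibitory SMAD induced by the pathway, had a log2 fold change of 0.06 (adjusted p = 0.416, limma). Of 12 mesenchymal genes tested among 30, 5 were higher and 2 lower (3 and 2 with median-of-ratios scaling), SPARC fell by 1.69, and ZEB1, SNAI2, TWIST1, CDH2 and FN1 did not reach the filter.

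The EGF ligands EREG and AREG fell, and the other genes of the pathway were split. EREG, which encodes epiregulin, was 107, 116 and 106 TPM in WT and 18.4, 22.4 and 21.1 in OX res (log2 fold change −2.36, SE 0.07, adjusted p = 4.3e-10, limma), and AREG, amphiregulin, was 10.2, 7.85 and 7.08 in WT and 3.85, 2.90 and 2.94 in OX res (−1.14). HBEGF rose by 0.43 and the receptor EGFR by 0.45. The AP-1 subunits moved apart. FOSL1 rose from 37.3, 39.3 and 45.9 to 107, 106 and 99.97 TPM (1.34), and FOS fell from 154, 165 and 162 to 68.6, 69.8 and 68.1 (−1.21). The phosphatase DUSP4 rose by 1.5, and SPRY4, an inhibitor of receptor signalling, fell by 1.21. Of 26 genes of the receptor, its ligands and MAPK feedback tested, 15 were higher and 9 lower, with a median of 0.36. In 5-FU res against WT, 17 of them were higher and 5 lower, with a median of 0.52. Of 20 YAP and TEAD targets, 15 were higher and 1 lower, with a median of 0.60, led by TGFB2, ANKRD1 (1.92), the tissue factor F3 (1.35) and GADD45B (0.98), while CTGF, a classical target, was at 0.06 (adjusted p = 0.384, limma). These targets also counted 13 higher and 4 lower in 5-FU res against WT, with a median of 0.43. Of 18 matrix protease genes, 11 were higher and 1 lower, among them PLAU, the urokinase activator of plasminogen (1.61), its receptor PLAUR (0.78) and the inhibitor TIMP2 (1.55). Of 27 integrin, collagen and laminin genes, 12 were higher and 6 lower (9 and 7 with median-of-ratios scaling), and ITGA3, a laminin-binding integrin, rose from 76.8, 78.4 and 77.3 to 205, 217 and 195 TPM (1.40). Junction genes split, with 20 higher and 8 lower of 42 (15 and 14 with median-of-ratios scaling). The tight junction protein CLDN1 rose by 2.19, and the cadherin CDH1 was lower by 0.26.

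Genes along the long arm of chromosome 7 were higher together in OX res. The boundary at 70 Mb (hg19) was set after the values had been seen. Of 410 genes tested that start after it, 314 (76.6%) were higher and 12 lower, with a median of 0.46 (0.33 with median-of-ratios scaling), whereas 237 genes on the rest of chromosome 7 had a median of 0.14 and 12383 genes of the other chromosomes 0.13, with 38.1% higher. In 5-FU res against the same WT libraries the median of the 410 genes was −0.01. These genes took 1.62%, 1.65% and 1.62% of the TPM in the WT libraries, 1.71%, 1.74% and 1.62% in 5-FU res and 2.34%, 2.36% and 2.26% in OX res. Among 230 bins of 10 Mb with at least 20 genes, the 7 with the highest medians, 0.36 to 0.67, were all in this region, and those of the other chromosomes ran from −0.06 to 0.32. No copy number was measured.

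**Figure D2:**
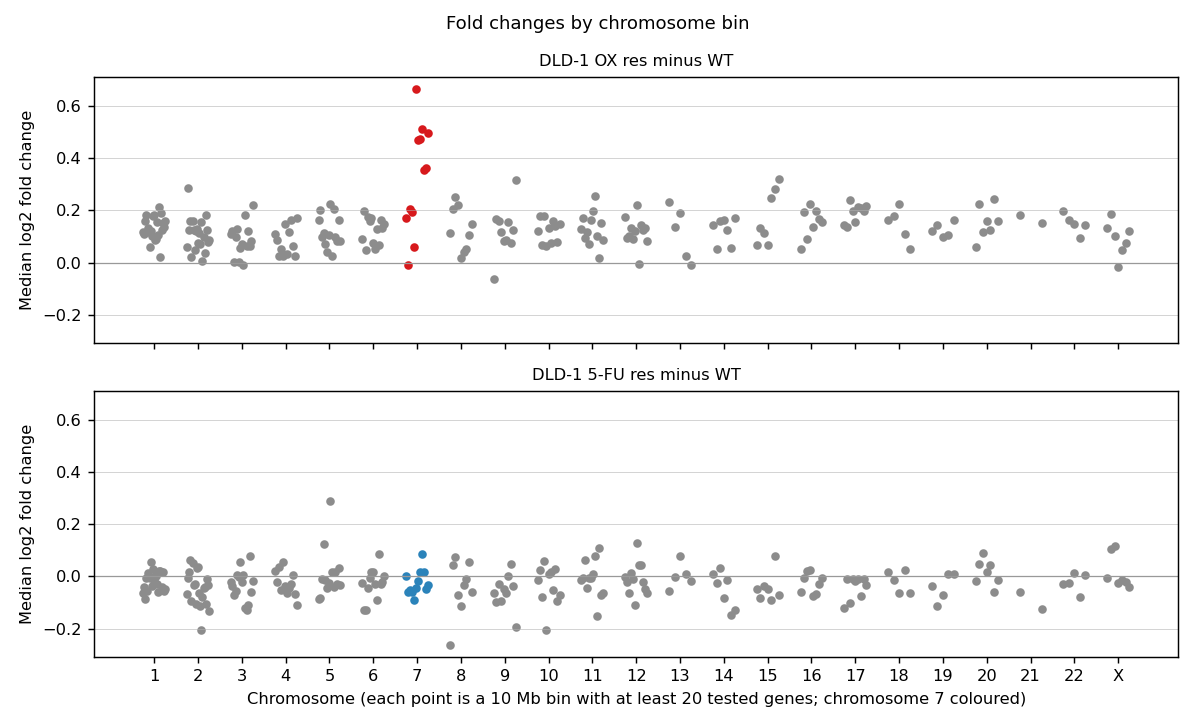
Median log2 fold change of tested genes in bins of 10 Mb, 1 point per bin with at least 20 genes, ordered along the chromosomes, for OX res minus WT (top) and 5-FU res minus WT (bottom), with chromosome 7 coloured. In the top panel 7 bins of chromosome 7 lie between 0.36 and 0.67, above every other bin shown, and in the bottom panel no bin of chromosome 7 stands out.

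Within this region 23 of the 410 genes (5.61%) were called higher and 3 lower. On the other chromosomes 2.64% of 12383 genes were called higher and 113 genes lower. CAV1, the scaffold of caveolae, was 3.98, 5.35 and 4.45 TPM in WT and 36.8, 37.1 and 36.4 in OX res (log2 fold change 2.76, SE 0.09, adjusted p = 7.1e-10, limma), and its neighbour CAV2 rose by 1.48. Further calls were CPA4, named above (3.03), the receptor EPHB6 (2.43), the chemokine CCL26 (2.87) and the guidance cue SEMA3A (1.67). The small heat shock protein HSPB1 (1.30) and the junction protein CLDN4 (1.14) were called as well. With median-of-ratios scaling some of the higher calls fell short of 1, CLDN4 among them (0.999). CFTR, the chloride channel of crypt cells, fell from 226, 237 and 226 to 92.2, 106 and 95.0 TPM (−1.22). Without the 410 genes, the calls beyond 1 over the rest numbered 340 higher and 120 lower.

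The other 2 lower calls of the region were neighbours. TP53TG1, a non-coding RNA at chr7:86952259-86974876 (hg19), was listed at 2.36, 3.45 and 4.83 TPM in WT, 1.39, 3.39 and 2.45 in 5-FU res and 0 in all 3 OX res libraries. CROT, which encodes the peroxisomal carnitine octanoyltransferase and lies next to it at chr7:86974980-87029110, was listed at 2.80, 2.15 and 2.58 in WT, 2.02, 2.07 and 2.07 in 5-FU res and 0 in all 3 OX res libraries. Next in order, the bile phospholipid exporter ABCB4 was 0.30, 0.795 and 1.09 in WT and 0.141, 0.203 and 0.0892 in OX res, below the filter, and ABCB1, the exporter of many drugs, was 47.0, 47.5 and 46.9 in WT and 29.8, 31.2 and 30.5 in OX res (log2 fold change −0.61, SE 0.06, adjusted p = 7.8e-06, limma). ABCB1 was also lower in 5-FU res, at 33.8, 34.1 and 29.3 TPM (5-FU res minus WT −0.53, adjusted p = 2.3e-05, limma), and the 2 resistant groups did not pass the test against each other (OX res minus 5-FU res −0.08, adjusted p = 0.265). Most tested genes on either side rose, with log2 fold changes of 0.41 for DMTF1 and 0.54 for TMEM243 before TP53TG1, and 0.49 for SLC25A40, 0.63 for DBF4, 0.42 for SRI and 0.90 for STEAP4 after ABCB1, whereas ADAM22, between DBF4 and SRI, was at 0.14 (adjusted p = 0.266, limma). GRM3, KIAA1324L and RUNDC3B of this stretch were below the filter.

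Genes of cell division were slightly but broadly higher in OX res. Of 48 DNA replication genes, 46 were higher and 0 lower, with a median of 0.40, and of 46 mitosis genes, 46 were higher and 0 lower, with a median of 0.46. With median-of-ratios scaling the counts were 40 and 1 and 41 and 0, with medians of 0.26 and 0.32. MCM2, a subunit of the replicative helicase, was 99.8, 100.5 and 98.7 TPM in WT and 139.9, 143 and 134 in OX res (0.47), and MKI67, the antigen Ki-67, was 117, 121 and 111 in WT and 161, 190.1 and 178 in OX res (0.59). The mitotic kinase AURKB rose by 0.90 and CDC45, a replication factor, by 0.79. RFC2 and MCM7 of the replication list lie in the chromosome 7 region, and over the 46 members outside it 44 were higher, with a median of 0.39. The groups did not overlap for MCM2 or MKI67, but the changes were small beside those of the epithelial genes. In 5-FU res, set against the same WT libraries, 1 replication gene was higher and 47 lower, and 0 mitosis genes higher and 43 lower, where 20.5% of all genes were higher and 25.9% lower. Tested directly, OX res exceeded 5-FU res in 48 of 48 and 46 of 46 genes, where 44.6% of all genes did.

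Genes of homology-directed repair were mostly higher as well. Of 34 genes of the Fanconi pathway and homologous recombination, 25 were higher and 1 lower, with a median of 0.38 (22 and 4, median 0.25, with median-of-ratios scaling). UBE2T, the Fanconi ubiquitin-conjugating enzyme, rose by 0.77, the recombination helicase RAD54L by 0.77, BRCA1 by 0.64 and FANCD2 by 0.53. XRCC2, a recombination gene that lies in the chromosome 7 region, rose by 0.82. Of 29 nucleotide excision repair genes, 14 were higher and 3 lower, with a median of 0.16 near that of all genes (7 and 6 with median-of-ratios scaling). ERCC1, the excision nuclease subunit studied as a marker of platinum response, was 43.5, 36.0 and 40.9 TPM in WT and 47.8, 48.7 and 48.3 in OX res (log2 fold change 0.26, SE 0.07, adjusted p = 0.00909, limma), and with median-of-ratios scaling 0.12 (adjusted p = 0.211). Of 11 translesion synthesis genes, 6 were higher and 0 lower, among them RAD18 (0.65), POLQ (0.58) and POLH (0.39). Of 8 mismatch repair genes, 3 were higher and 1 lower. MSH6 had a level of 15, 16.4 and 14.3 TPM in WT and 15.8, 14.2 and 16.2 in OX res.

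Genes of the ATF4 amino acid response were mostly lower. Of 37 genes on this list, 29 were lower and 4 higher, among these GDF15, with a median of −0.35. PHGDH, the first enzyme of serine synthesis, was 513, 522 and 533 TPM in WT and 229.8, 234 and 218 in OX res (log2 fold change −1.2, SE 0.04, adjusted p = 1.8e-09, limma). PCK2, the mitochondrial phosphoenolpyruvate carboxykinase, was 149, 152 and 152 in WT and 67.4, 70.9 and 62.7 in OX res (−1.16), and the groups overlapped for neither. ASNS, asparagine synthetase, which lies in the chromosome 7 region, fell by 0.77, PSAT1 by 0.72, DDIT3, the factor CHOP, by 0.59, and ATF4 itself by 0.28. Of 24 genes of the unfolded protein response, 11 were lower and 5 higher (15 and 3 with median-of-ratios scaling), with a median of −0.12. The chaperone HSPA5 was 487, 483 and 488 TPM in WT and 385, 394 and 381 in OX res (−0.33). In 5-FU res against the same WT libraries, 32 ATF4 genes were higher and 0 lower and 21 unfolded protein genes higher and 0 lower. Tested directly, OX res was lower than 5-FU res in 35 of 37 and 22 of 24, with a median of −1.04 for either list, where 18.3% of all genes were lower.

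Ribosomal protein genes were mostly lower. Of 46 genes of the large subunit, 43 were lower and 0 higher, with a median of −0.43, and of 31 of the small subunit, 29 were lower and 0 higher, with a median of −0.37. Median-of-ratios scaling gave 44 and 31 lower, whereas quantile normalization gave 31 lower and 1 higher in the large subunit, with a median of −0.19, and 13 lower and 1 higher in the small, with a median of −0.09. RPL3 was 2802, 2723 and 2848 TPM in WT and 1886, 1887 and 1827 in OX res (log2 fold change −0.58). Ribosome biogenesis genes did not share a direction, with 14 higher and 9 lower of 55 (6 and 24 with median-of-ratios scaling). Oxidative phosphorylation genes were lower more often than higher, with 18 lower and 10 higher of 76 and a median of −0.03 (43 and 4 with median-of-ratios scaling).

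**Figure D3:**
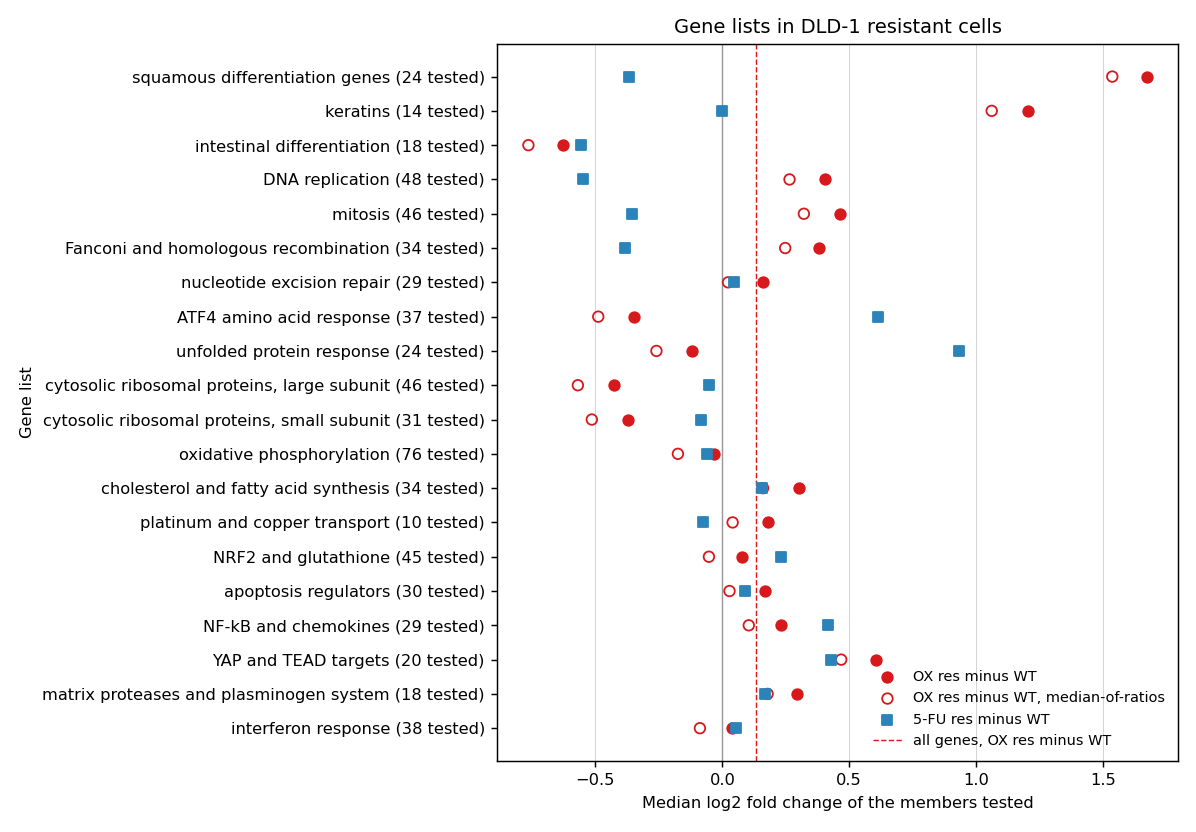
Median log2 fold change of the tested members of 20 gene lists in OX res minus WT (filled circles), the same with median-of-ratios scaling (open circles) and 5-FU res minus the same WT libraries (squares), with a dashed line at 0.13, the median of all genes. Keratins are at 1.2, intestinal differentiation at −0.63 and squamous genes at 1.68, a list written after its values had been seen and with 24 of 48 members below the filter, which makes its place a description only.

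Genes of platinum transport changed little. Of 14 platinum and copper transporters and chaperones, 10 were tested, and 6 were higher and 0 lower, with a median of 0.18, near that of all genes. With median-of-ratios scaling 2 passed. SLC47A1, an efflux transporter of organic cations, was 2.95, 2.97 and 3.02 TPM in WT and 4.79, 5.65 and 4.93 in OX res (log2 fold change 0.62, SE 0.12, adjusted p = 8.9e-04, limma), and ATOX1, a copper chaperone, was 184, 185 and 183 in WT and 252, 254 and 219 in OX res (log2 fold change 0.39, SE 0.05, adjusted p = 1.1e-04). These passed under both scalings. SLC31A1, the copper importer CTR1, had a log2 fold change of 0.19, SLC31A2 of 0.37, SLC22A4 of 0.38 and COX17 of 0.18, and none of these passed with median-of-ratios scaling (adjusted p = 0.508, 0.0521, 0.104 and 0.692). Whether 3 of these passed the adjusted p also hung on single libraries. Leaving out WT replicate 1 or 3, or replicate 2 or 3 of OX res, kept SLC31A1 from passing (0.14 to 0.19). Leaving out WT replicate 1 or 3, or replicate 1 or 2 of OX res, did so for COX17 (0.14 to 0.16). For SLC22A4 it was WT replicate 1 or 2, or any of OX res (0.29 to 0.44). The copper exporters ATP7A (0.14) and ATP7B (0.12), the carnitine transporter SLC22A5 (−0.01) and the chaperone CCS (−0.05) did not pass, and the organic cation transporters SLC22A2 and SLC22A3 were below the filter.

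Among 8 ABC exporters tested, 4 were higher and 1, ABCB1, lower. ABCC3 rose by 0.66, ABCG2 by 0.63 and ABCC1 by 0.26, and ABCC2, which exports glutathione conjugates, was 0.517, 0.551 and 0.730 TPM in WT and 0.488, 0.516 and 0.618 in OX res. Of 5 metallothioneins, 3 were higher and 0 lower (2 and 1 with median-of-ratios scaling). MT2A was 449, 464 and 455 TPM in WT and 855, 1017 and 915 in OX res (log2 fold change 1.02, SE 0.06, adjusted p = 6.5e-08, limma) and MT1E rose by 0.68. Genes of NRF2 and glutathione were split, with 20 higher and 10 lower of 45 (11 and 17 with median-of-ratios scaling). NQO1, a quinone reductase induced by NRF2, rose from 111, 113 and 113 to 199, 184 and 191 TPM (0.76) and GCLM, a subunit of the enzyme that starts glutathione synthesis, by 0.50. SLC7A11, the cystine importer, fell by 0.32, HMOX1 by 0.31 and the aldo-keto reductase AKR1C3 by 1.33.

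Some genes of growth arrest and cell death are given as single genes, with no list count. CDKN1A, the cell cycle inhibitor p21, was 25.4, 27.3 and 27.1 TPM in WT and 82.5, 85.8 and 79.4 in OX res (log2 fold change 1.60, SE 0.05, adjusted p = 6.9e-10, limma). SFN, the protein 14-3-3σ and also an epidermal gene, rose by 1.2, PHLDA3 by 0.94 and FAS by 0.73, while the pro-apoptotic BBC3 fell by 0.56. GDF15, a secreted member of the TGF-β family on which the study centred, was 324, 318 and 297 TPM in WT, 842, 696 and 682 in OX res and 754, 838 and 839 in 5-FU res (log2 fold change 1.23, SE 0.08, adjusted p = 1.3e-07 for OX res minus WT). All OX res values were above all WT values, and the direct difference of OX res from 5-FU res was −0.14 (adjusted p = 0.136, limma). Apoptosis regulators counted 14 higher and 3 lower of 30 (7 and 7 with median-of-ratios scaling), and their member BCL2L1, a survival gene, rose from 127, 129.8 and 139.8 to 278, 278 and 264 TPM (1.04).

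**Figure D4:**
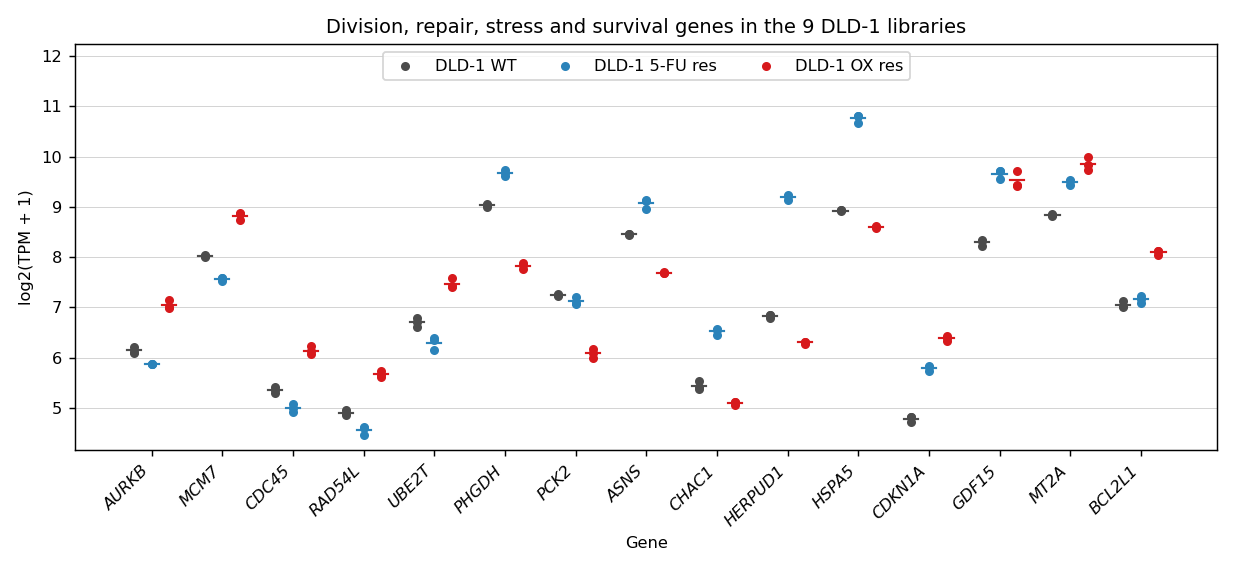
Log2(TPM + 1) of 15 genes of division, repair, stress and survival in each DLD-1 library, with 3 points per group and a line at the group mean. OX res lies above WT for the division and repair genes, below WT from PHGDH to HSPA5 and above WT for CDKN1A, GDF15, MT2A and BCL2L1. MCM7 and ASNS lie in the chromosome 7 region.

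Stem cell markers did not move together. Of the 13 CRC stem cell markers that the study used, a list that is no independent evidence here, 11 were tested, and 7 were higher and 2 lower, with a median of 0.18 (2 and 4 with median-of-ratios scaling). CD24, a surface antigen, was 224, 244 and 231 TPM in WT and 503, 513 and 526 in OX res (log2 fold change 1.14, SE 0.04, adjusted p = 2.7e-09, limma), and ALDH1A1, an aldehyde dehydrogenase, rose by 0.67. These were the 2 higher under both scalings. CD44 had a log2 fold change of 0.21, EPCAM of 0.18, ITGB1 of 0.16, ITGAV of 0.26 and ALCAM of 0.21, and none of these 5 passed with median-of-ratios scaling. Without WT replicate 1 or 3 or OX res replicate 2, ITGB1 (0.15, 0.13 and 0.16) and ALCAM (0.20, 0.18 and 0.19) did not pass either. ITGB1 also did not pass without OX res replicate 1 (0.16) or 3 (0.15). PROM1, the antigen CD133, fell by 0.84 and DPP4, a member also of the intestinal list, fell by 3.38. LGR5, the receptor of crypt stem cells, was 73.4, 80.4 and 74.3 in WT and 67.7, 78.4 and 76.3 in OX res (adjusted p = 0.654), and POU5F1 had a log2 fold change of −0.47 (adjusted p = 0.0534), which passed with median-of-ratios scaling (−0.54, adjusted p = 0.0433) and without WT replicate 2 (−0.58). SOX2 and NANOG lay below the filter. Of 27 intestinal stem cell and WNT target genes, 19 were higher and 4 lower (12 and 6 with median-of-ratios scaling). TNFRSF19 rose by 1.88 and ASCL2, a crypt stem cell factor, by 0.74, whereas MYC fell from 209, 217 and 216 to 141, 149 and 132 TPM (−0.60).

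Lipid synthesis genes that passed the test were higher. Of 34 cholesterol and fatty acid synthesis genes, 25 were higher and 0 lower, with a median of 0.30 (20 and 0, median 0.16, with median-of-ratios scaling and 20 and 1 with quantile normalization). INSIG1 (0.82) and CYP51A1 (0.73) of this list lie in the chromosome 7 region, and over the 32 members outside it 23 were higher, with a median of 0.30. ACAT2, which starts the pathway, rose by 0.77. The glucose transporter SLC2A1 was 103, 104 and 102 TPM in WT and 353, 372 and 346 in OX res (log2 fold change 1.78, SE 0.04, adjusted p = 1.2e-10, limma), and the carbonic anhydrase CA12 was 15.1, 17.3 and 13.3 in WT and 2.80, 2.52 and 2.74 in OX res (−2.13), but the hypoxia and glycolysis list as a whole counted 12 higher and 7 lower of 35 (7 and 15 with median-of-ratios scaling).

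Immune genes changed little as lists. Of 29 NF-κB and chemokine genes, 15 were higher and 4 lower (11 and 7 with median-of-ratios scaling). The cytokine LIF rose from 26.1, 29.6 and 27 to 96.8, 103 and 95.9 TPM (1.80), IL32 by 1.29 and the iron-binding LCN2 by 1.05. Of 38 interferon response genes, 8 were higher and 5 lower (6 and 13 with median-of-ratios scaling), and of 18 genes of MHC class I presentation, 5 were higher and 4 lower (2 and 5 with median-of-ratios scaling). HLA-B fell by 0.21, and B2M, the shared chain of class I molecules, had a log2 fold change of 0.13 (adjusted p = 0.0501, limma), which passed without WT replicate 1 (0.16) or OX res replicate 1 (0.16).

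The 2 resistant derivatives of DLD-1 were compared directly, which does not pass through the shared WT libraries but uses the same OX res libraries as the comparison with WT. Of 13467 genes, 1148 (8.52%) were called, 804 (5.97%) higher and 344 (2.55%) lower in OX res (562 and 446 with median-of-ratios scaling). PSCA, a surface antigen of bladder and prostate epithelium, was 1.94, 0.781 and 0.825 TPM in 5-FU res, 48.6, 53.9 and 53.6 in WT and 109.9, 109 and 102 in OX res (OX res minus 5-FU res 5.67, adjusted p = 4.9e-11, limma). KLK11 was 0.596, 0.494 and 0.151 in 5-FU res, 20.3, 19.9 and 22.1 in WT and 67.9, 69.1 and 66.5 in OX res (OX res minus 5-FU res 5.62). KRT4 was 0.153, 0.254 and 0.253 in 5-FU res (OX res minus 5-FU res 5.20). These genes were lowest in 5-FU res and highest in OX res. SPTSSB, a subunit of serine palmitoyltransferase, differed by 4.27, and the keratins counted 13 higher and 0 lower of 14. In the other direction, HSD17B2 was 40.6, 43.0 and 38.9 TPM in 5-FU res (−4.91), and the ligand EREG was 218, 224 and 199 (−3.31). EPS8L3 (−3.19), the amino acid transporter SLC43A1 (−3.08), the potassium channel KCNJ5 (−3.04), L3MBTL3 (−3.02) and the laminin LAMA2 (−2.92) also ranked among the 10 largest differences with OX res lower.

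The OX change in DLD-1 was then tested against that in HCT116 and in SW480, whose WT libraries are separate. Over 15801 genes the change differed from that in HCT116 by more than 1 for 4599 (29.1%), with DLD-1 higher for 1040 (6.58%) and lower for 3559 (22.5%) (1843 and 1958 with median-of-ratios scaling), and from that in SW480 for 2281 (14.4%), 545 (3.45%) higher and 1736 (11%) lower (944 and 1118). The median OX change over all genes was 0.50 in HCT116 and 0.32 in SW480 on this scale. Of the 363 genes called higher in DLD-1, 99 (27.3%) were called higher in HCT116, which is 2.48% of the 3996 there. In SW480, 71 (19.6%) were, 3.67% of 1932. Over all 15801 genes, 25.3% were called higher in HCT116 and 12.2% in SW480. The DLD-1 calls came from the 13467 genes tested in that line, so the shares of all genes given here rest on a different set. Of the 123 called lower, 8 (6.5%) were called lower in HCT116, 1.19% of 670 (4.24% of all genes), and 4 (3.25%) in SW480, 2.37% of 169 (1.07% of all genes). In the opposite direction, 29 of the 363 were called lower in HCT116 and 14 in SW480. Of the 123, 20 were called higher in HCT116 and 20 in SW480, where 25.3% and 12.2% of all genes were. Past both tests of the difference in the direction of the DLD-1 call were 127 of the 363 genes called higher (35%) and 89 of the 123 called lower (72.4%). With median-of-ratios scaling they were 130 of 278 (46.8%) and 93 of 155 (60%). The shares were 47.8% and 52.8% with quantile normalization and 51.1% and 52.8% with the length trend removed, so the gap depends on the scaling. On the main scale more of all genes passed each single test with DLD-1 lower, as given above. The share of all genes past both was not counted. Both tests reuse the DLD-1 libraries that made the calls.

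Squamous genes and the gastric mucin MUC6 were among the 10 largest differences with DLD-1 higher. The log2 fold change of SPRR3 was 5.37 in DLD-1, 0.00 in HCT116 and 0.02 in SW480, that of IVL 3.72, 0.00 and 0.04, that of KRT4 3.01, −0.01 and −0.17, and that of MUC6 3.68, 0.25 and −0.01. Several genes that fell in DLD-1 had positive log2 fold changes in HCT116 and SW480, where the medians over all genes were 0.50 and 0.32. These genes were ranked by their differences between lines, which favours such values. DPP4 was at −3.38 in DLD-1, 0.95 in HCT116 and 0.30 in SW480, SH3BGRL at −1.95, 1.61 and 3.20, PROS1, the anticoagulant protein S, at −1.08, 2.21 and 2.24, SPRY4 at −1.21, 1.67 and 2.38, and AKR1C3 at −1.33, 4.37 and 1.43. WDR72, the scaffold protein IQGAP2 and the zinc finger gene ZNF169 followed the same pattern. GDF15, by contrast, was at 1.23 in DLD-1, 1.62 in HCT116 and 2.2 in SW480, with differences of −0.38 (adjusted p = 0.00411, limma) and −0.97 (adjusted p = 1.6e-07), where the median difference over all genes was −0.38 and −0.205. With median-of-ratios scaling, where these medians were −0.07 and −0.01, the differences of GDF15 were 0.04 (adjusted p = 0.813) and −0.74 (adjusted p = 2.54e-05, limma), so that the one from HCT116 changed sign and did not pass. The chromosome 7 region had medians of 0.53 in HCT116 and 0.21 in SW480, against 0.51 and 0.34 for the other chromosomes of these lines.

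**Figure D5:**
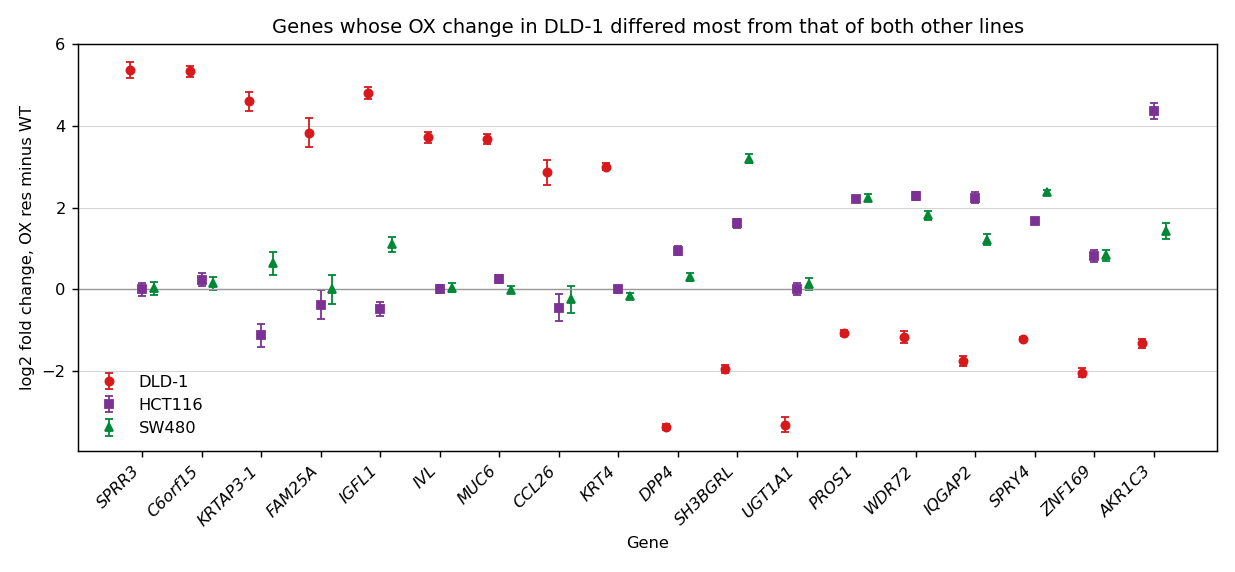
Log2 fold change of OX res minus WT with its SE in DLD-1 (circles), HCT116 (squares) and SW480 (triangles) for the 18 genes that led the tests of the difference and were not listed at 0 in a DLD-1 group; DLD-1 values come from the fit of 9 libraries and the others from the fit of 27. DLD-1 lies above both lines for the first 9 genes and below both for the last 9.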

How the data were processed

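RNA-seq of 3 OX res and 3 WT DLD-1 libraries was analysed, with 3 5-FU res DLD-1 libraries in the fit and 18 HCT116 and SW480 libraries for the tests between lines. The authors deposited FPKM per gene symbol for each library. Reads were trimmed with Trimmomatic and aligned to hg19, and the submitters' processing notes name TopHat2 2.1.1, Bowtie2 2.2.8, SAMtools 0.1.18 and Cuffdiff 2.2.1, while the methods name Cufflinks. FPKM were divided by the library sum to give TPM, as in the study. Each table holds 26255 symbols, and the 13467 that reached a TPM of 1 in 3 or more of the 9 libraries were tested with limma 3.58.1 (lmFit, eBayes with trend) in R 4.3.3 on log2(TPM + 1). Calls required a log2 fold change beyond 1 with a Benjamini-Hochberg adjusted p under 0.05, which the study's Wilcoxon test cannot reach with 3 libraries per group. Differences between lines were interaction contrasts over 27 libraries and 15801 genes.

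The comparison, gene lists and tests were chosen with earlier results of these data known. The squamous list and the chromosome 7 boundary were added after these values were seen. Genes were named if they had the 15 largest non-overlapping changes in a direction, the 5 largest of a list or the 10 largest differences in both tests between lines or in the test against 5-FU res, and, whatever their change, the platinum transporters, the 13 stem cell markers, GDF15, MYC and ERCC1. Some genes that met these rules are not reported here. Others, such as the genes around TP53TG1 and CROT, list members given as examples and squamous genes at 0, were chosen after their values were seen. Positions were taken from the GRCh37 lift of GENCODE v44, where 22422 symbols were found as written, 1317 under an older name and 2516 not at all. Promoters came from RefSeq on GRCh38.p14, which matched 10387 of the genes tested. TFF1 and TFF2 had no entry.

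On simulated data for OX res against WT (13254 genes), limma recovered 94 of 100 genes changed by 1.2 and 100 of 100 changed by 2, with 2 false calls. For the difference from HCT116 (15365 genes) it recovered 93 and 100, with 2 false calls. The changed genes were drawn only from those well above the filter in DLD-1 WT, so recovery of genes near 0 in WT was not measured. The simulated noise was normal and independent between genes, and no shift over all genes was put in for OX res. Alternatives were median-of-ratios scaling, quantile normalization, FPKM as deposited, removal of the length trend by lowess, a pseudocount of 0.1, a mean TPM of 5 or no filter, eBayes without trend, a replicate block, a fit of the compared groups alone, and each library left out. Python 3.11.15 with numpy 2.4.6, pandas 2.3.3 and matplotlib 3.10.9 was used.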

Additional observations from a re-analysis of the deposited data

Results flagged for a closer look

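The OX change in DLD-1 differed by more than 1 on the log2 scale from that in HCT116 for 4599 genes and from that in SW480 for 2281 genes, by an interaction test in limma over all 27 libraries. Genes are named here because they led these tests in the direction of their DLD-1 call, and each value below is the OX change in DLD-1 minus the OX change in the other line. The differences from HCT116 and SW480 with DLD-1 higher were 5.37 and 5.35 for SPRR3, 5.11 and 5.20 for C6orf15, 5.73 and 3.96 for KRTAP3-1, 4.22 and 3.84 for FAM25A, and 5.29 and 3.71 for IGFL1. They were 3.72 and 3.68 for IVL, 3.43 and 3.69 for MUC6, 3.32 and 3.11 for CCL26, and 3.01 and 3.18 for KRT4. With DLD-1 lower, the differences from HCT116 and SW480 were −4.32 and −3.67 for DPP4, −3.57 and −5.15 for SH3BGRL, −3.32 and −3.45 for UGT1A1, −3.29 and −3.33 for PROS1, and −3.45 and −2.98 for WDR72. They were −4.00 and −2.97 for IQGAP2, −2.88 and −3.59 for SPRY4, −2.87 and −2.87 for ZNF169, and −5.70 and −2.76 for AKR1C3.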

How the results depend on the processing

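The number of genes called between OX res and WT, 486, was 734 with a pseudocount of 0.1, 302 when a mean TPM of 5 was required, for which 186 of the calls were no longer tested, and 292 with FPKM as deposited. The count between OX res and 5-FU res, 1148, was 747 with FPKM as deposited, and that of genes whose change differed from SW480, 2281, was 3594 with a pseudocount of 0.1. The share of higher calls against WT, 74.7%, was 64.2% with median-of-ratios scaling, 64.4% with FPKM as deposited, 62.2% with quantile normalization and 63.6% with the length trend removed. CTGF reversed to −0.10 with quantile normalization. Leaving out each library gave 452 to 500 genes for OX res against WT, 1100 to 1152 against 5-FU res, 4515 to 4662 for the difference from HCT116 and 2205 to 2348 for that from SW480. Replicate numbers showed no pairing of WT and OX res libraries, whose deviations correlated at −0.07, −0.06 and −0.03 where the numbers were the same. For WT and 5-FU res these correlations were 0.08, 0.14 and 0.06, and for OX res and 5-FU res −0.05, −0.10 and 0.04. A fit with the replicate number as a block gave 488, 1147, 4599 and 2280. Of 274 genes, named or list members, 241 kept their side of the adjusted p threshold under every alternative that could be run for them, up to 18. Direction was compared only where the main or the alternative setting passed it, and the fold threshold was not applied. Over 4808 gene values, 4640 were unchanged in this sense, 142 no longer passed the adjusted p, 25 newly passed it, and 1 reversed. Of 1350 counts for gene lists, 165 moved by more than 1.5 times. Chosen after seeing the data, leaving out genes under 300 bases or without a length gave 467 and leaving out chromosome 7 after 70 Mb gave 460. Depth is unknown, so no counting error could be given.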
